A study of Mus musculus with 6 samples.

Results

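The transcription factors that drive precursor cells to become fat cells were examined in RNA-seq data of mouse gWAT, the gonadal depot of white fat. The group holds 8 of the 19790 genes in the deposited count table: *Pparg*, *Cebpa*, *Cebpb*, *Cebpd*, *Ebf1*, *Ebf2*, *Klf15* and *Zfp423*, each matched through its NCBI gene identifier. All 6 animals were wild-type C57BL/6 mice, males as far as the methods state, and for 8 weeks 3 of them ate normal chow (NCD) and the other 3 a high-fat diet (HFD). Sample labels give 6 weeks as the age at which feeding began, and the methods give 8 weeks. The labels name no transgene or altered allele in either group, while elsewhere in the study WT stands for *Tmem86a* flox/flox mice without Cre. Whole tissue was used, so the RNA comes from fat cells and every other cell of the pad. Each library held between 49575113 and 66360046 counts.

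PPARγ, a nuclear receptor, and C/EBPα, a leucine zipper factor, are the pair that turns on the genes of the mature fat cell, and each sustains the expression of the other. C/EBPβ and C/EBPδ act earlier, as the first wave after a hormonal stimulus. EBF1 and EBF2 are early B cell factors with roles in fat cell precursors and in fat cell identity, ZFP423 is a zinc finger factor of committed precursors, and KLF15 is a Krüppel-like zinc finger factor that appears late in differentiation and activates the insulin-responsive glucose transporter gene *Slc2a4*.

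The libraries were not alike in tissue content. Genes of seminal vesicle secretions took 58.6%, 11.2% and 2.30% of the counts in NCD replicates 1, 2 and 3, and almost none in the HFD libraries. TMM scaling, which sets library sizes from the bulk of genes and not from the few most abundant, set the factor of NCD replicate 1 to 0.496 and those of the remaining libraries to 1.02 to 1.27. All 7 adipocyte marker genes were detected in every mouse, with a sum of 7922 to 43235 TMM-scaled CPM (a count relative to the scaled total of its library) on NCD and 13261 to 18871 on HFD. The lowest of these sums was that of NCD replicate 1. The 10 macrophage markers summed to 434 to 909 on NCD and to 2627 to 5544 on HFD. In bulk tissue, fewer cells of a type and less RNA per cell cannot be told apart, and this holds for every value that follows. Each member and each list is therefore given with all 6 mice and without NCD replicate 1, and NCD replicate 2 keeps its share of these genes in the second case.

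*Klf15* was the member that differed between the diets with all 6 mice, and it was lower on HFD. Of the 14 fits compared, *Pparg* and *Cebpa* differed only in that without NCD replicate 1, and were then lower on HFD as well. The other 5 members passed in neither fit. With all 6 mice, 1 of the 8 members was past an adjusted p of 0.05 by edgeR (quasi-likelihood test, Benjamini-Hochberg over 15241 genes), against a background of 7.47% of all genes in either direction, 1.9% lower and 5.58% higher on HFD. Without NCD replicate 1, 3 of the 8 were past it and all 3 were lower, against 20.9% in either direction, 10.1% lower and 10.7% higher. The median log2 fold change of the members was -0.37 with all 6 mice, beside -0.08 for all genes, and -0.77 without NCD replicate 1, beside 0.02.

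*Klf15* (NCBI gene 66277) lies on the forward strand of chr6:90462576-90475238 in GRCm38, and no other annotated gene overlaps it in GENCODE vM21. It was at 79.9, 85.9 and 107 TMM-scaled CPM in the NCD mice, here and below in the order of replicates 1 to 3. In the HFD mice it was at 31.3, 28.3 and 13.7. Every HFD-fed mouse lay below every NCD-fed mouse, and the NCD mouse rich in seminal vesicle RNA was close to the other NCD mice. That mouse had the lowest sum of adipocyte markers. In counts, its *Klf15* over *Cebpa* was 0.476, beside 0.131 and 0.142 in NCD replicates 2 and 3. The part of seminal vesicle tissue in its *Klf15* value was not tested. The NCD mean of 90.9 ± 14.3 (SD, n = 3 mice) stood against an HFD mean of 24.4 ± 9.43. By edgeR *Klf15* was 3.72-fold lower, a log2 fold change of -1.90 (standard error 0.337) with an adjusted p of 0.0320. Leaving out NCD replicate 1 gave -1.97 (standard error 0.350) with an adjusted p of 0.0176 in edgeR. An exact permutation test on the 6 values, two-sided, reached its floor for such groups, p = 0.1. *Klf15* was the only member whose diets did not overlap, where 39.2% of all genes tested did not overlap, 18.7% below and 20.5% above on HFD. Without NCD replicate 1, *Pparg*, *Cebpa*, *Ebf1* and *Ebf2* lay below on HFD as well, so that 5 of the 8 did not overlap, beside 57.1% of all genes, 29.1% below and 27.9% above. The call was lost, with the direction kept, on removing 1 of the other 5 mice (log2 fold change from -2.11 to -1.59, adjusted p from 0.0681 to 0.105 in edgeR) and with scaling by library totals (-1.44, adjusted p = 0.113 in edgeR).

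The bases just before the annotated start of *Klf15* are shown because this member is past the threshold with all 6 mice. They are from RefSeq on GRCm38.p6, forward strand, chr6:90462326-90462575, and capitals mark the 6 letters CACGTG, an E-box that factors such as USF and MYC can bind.
Klf15: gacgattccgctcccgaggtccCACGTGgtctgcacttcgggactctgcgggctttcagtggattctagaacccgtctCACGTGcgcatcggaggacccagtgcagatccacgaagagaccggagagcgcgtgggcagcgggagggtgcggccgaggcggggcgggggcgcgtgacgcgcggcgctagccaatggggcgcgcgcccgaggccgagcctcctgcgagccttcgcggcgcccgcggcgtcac
The matches begin 228 and 172 bases before the start. Of 32851 promoters of the same 250-base length, 6.02% held CACGTG at least once. The palindromic glucocorticoid response element was searched on both strands because *Klf15* is a known glucocorticoid-induced gene. Its letters were not in this window and were in 0.387% of all promoters. A match of letters describes the sequence and is no measurement of binding.

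*Pparg* (NCBI gene 19016, forward strand of chr6:115360951-115490399) was at 53.6, 253 and 295 TMM-scaled CPM in the NCD mice. In the HFD mice it was at 136, 137 and 105. The HFD mice lay close together, between the NCD mouse rich in seminal vesicle RNA and the other NCD mice, so that the diets overlapped. With all mice the log2 fold change of -0.67 had a standard error of 0.588 (adjusted p = 0.473 from edgeR). In the fit without NCD replicate 1 it was -1.11 with a standard error of 0.166 (adjusted p = 0.0123 from edgeR), or 2.16-fold lower on HFD. The call rested on leaving out that library, since the adjusted p was between 0.450 and 0.805 in the other 12 fits compared.

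*Cebpa* (NCBI gene 12606, forward strand of chr7:35119293-35121928) was at 168, 657 and 753 TMM-scaled CPM in the NCD mice. In the HFD mice it was at 350, 347 and 258. The order of the mice was nearly that of *Pparg*, with NCD replicate 1 lowest and NCD replicates 2 and 3 highest. With all mice the log2 fold change was -0.73 with a standard error of 0.547 (adjusted p = 0.407 from edgeR), and without NCD replicate 1 it was -1.14 with a standard error of 0.195 (adjusted p = 0.0164 from edgeR). The adipocyte markers *Plin1*, *Lipe* and *Cfd* also fell without NCD replicate 1, and the other 4 of the 7 did not pass. The part of adipocyte content in the values of *Pparg* and *Cebpa* was not tested.

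*Cebpb* (NCBI gene 12608, forward strand of chr2:167688915-167690418) varied most among the members. It was at 8.59, 6.82 and 1.88 TMM-scaled CPM in the NCD mice, and the HFD mice had 1.44, 60.1 and 2.74. HFD replicate 2 alone was high, and the other HFD mice lay within or below the NCD range. Its log2 fold change of 1.90 had a standard error of 1.44 (adjusted p = 0.409 from edgeR). The fit without NCD replicate 1 gave 2.32 with a standard error of 1.73 (adjusted p = 0.377 from edgeR). Its sign turned without HFD replicate 2, to -1.44 (adjusted p = 0.346 from edgeR). The gene has a single exon, and 312 of its 1504 bases are shared with an exon of *Tmem189* on the opposite strand. *Tmem189* was at 83.7 TMM-scaled CPM in HFD replicate 2, the lowest of its 3 HFD values, and the part of *Tmem189* in the *Cebpb* counts was not tested.

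*Cebpd* (NCBI gene 12609, forward strand of chr16:15887286-15891031) had a higher fitted value on HFD that did not pass in edgeR. It was at 8.22, 14.4 and 11.6 TMM-scaled CPM in the NCD mice, and the HFD mice had 12.4, 30.7 and 41.1. HFD replicates 2 and 3 lay above all NCD mice, and HFD replicate 1 lay among them. Its log2 fold change of 1.29 had a standard error of 0.463 (adjusted p = 0.129 from edgeR), and the fit without NCD replicate 1 gave 1.12 with a standard error of 0.501 (adjusted p = 0.163 from edgeR). DESeq2 called *Cebpd* (adjusted p = 0.0402 from DESeq2) in a fit that called 25.6% of all genes, 14.1% higher and 11.5% lower. *Cebpd* was higher on HFD in all 13 alternative fits, with log2 fold changes from 0.92 to 1.75. Of its 3746 exonic bases, 562 are shared with *Spidr* on the opposite strand, which was at 7.95, 10.7 and 11.0 TMM-scaled CPM on NCD and 13.3, 17.0 and 16.9 on HFD. How reads in shared bases were counted is not stated, and the part of *Spidr* in the *Cebpd* counts was not tested.

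*Ebf1* (NCBI gene 13591, forward strand of chr11:44617317-45008091) did not differ between the diets beyond its error with all 6 mice. It was at 35.2, 132 and 164 TMM-scaled CPM in the NCD mice, and the HFD mice had 121, 108 and 89.0. The HFD values lay within the NCD range. Its log2 fold change of -0.06 had a standard error of 0.530 (adjusted p = 0.949 from edgeR), and its sign changed with the setting. In the fit without NCD replicate 1 it was -0.47 with a standard error of 0.176 (adjusted p = 0.112 from edgeR). Every HFD mouse then lay below the remaining NCD mice.

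*Ebf2* (NCBI gene 13592, forward strand of chr14:67233292-67430918) was at 10.4, 29.5 and 53.4 TMM-scaled CPM in the NCD mice, and the HFD mice had 19.4, 25.4 and 13.6. The diets overlapped, and the NCD mice spanned a wider range than the HFD mice. Its log2 fold change of -0.68 had a standard error of 0.577 (adjusted p = 0.463 from edgeR), and the fit without NCD replicate 1 gave -1.08 with a standard error of 0.344 (adjusted p = 0.0779 from edgeR). *Zfp423* (NCBI gene 94187, reverse strand of chr8:87661810-87959595) was at 13.3, 37.7 and 33.7 on the same scale in the NCD mice, and at 41.6, 36.7 and 35.7 in the HFD mice. Apart from NCD replicate 1 the mice lay within a narrow band. Its log2 fold change of 0.43 had a standard error of 0.381 (adjusted p = 0.480 from edgeR), and without that library it was 0.11 with a standard error of 0.120 (adjusted p = 0.564 from edgeR).

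**Figure D1:**
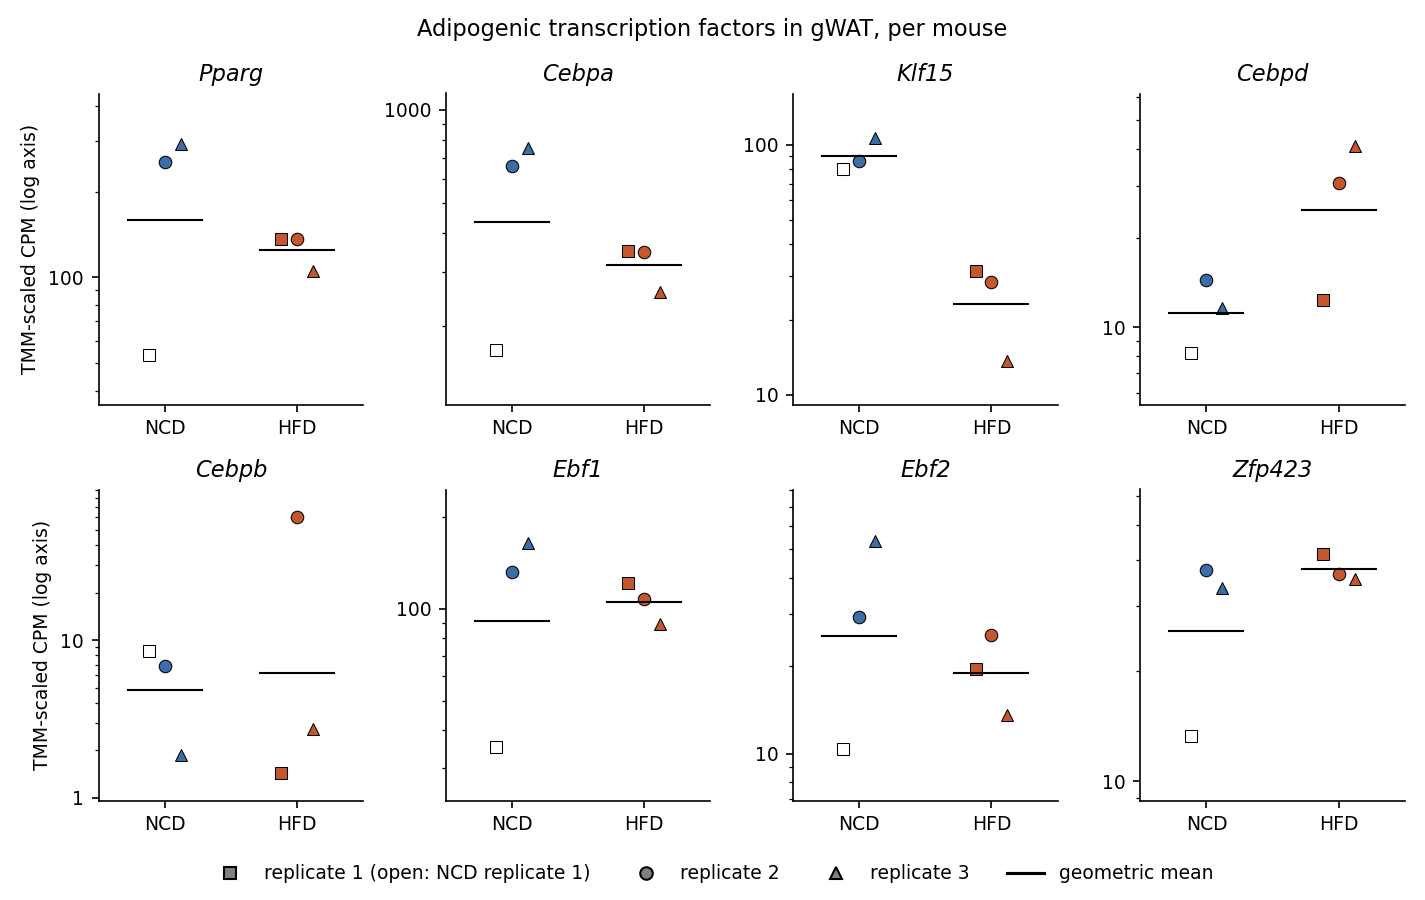
TMM-scaled CPM of the 8 factors in each mouse (log axes that span the panels' own ranges), with squares, circles and triangles for replicates 1, 2 and 3, an open square for NCD replicate 1 and a line at the geometric mean of each diet. The 3 HFD values of *Klf15*, 13.7 to 31.3, lie below the 3 NCD values, 79.9 to 107, and the diets overlap for every other factor.

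**Figure D2:**
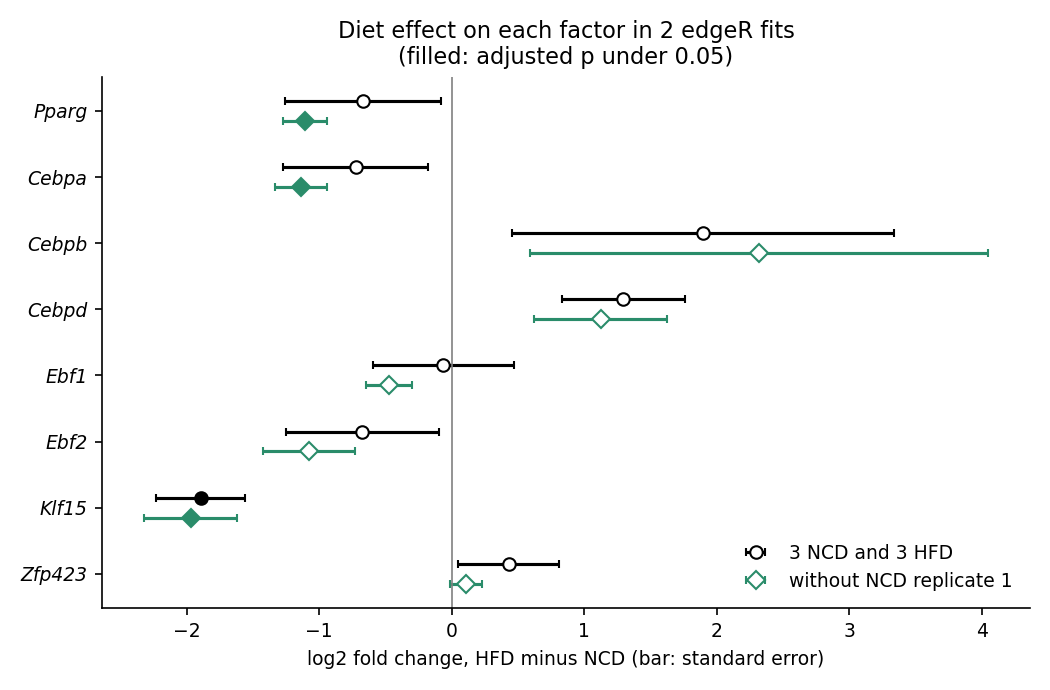
Log2 fold change of each factor, HFD minus NCD, with bars of 1 standard error, from edgeR with all 6 mice (black circles) and without NCD replicate 1 (green diamonds), filled where the adjusted p was under 0.05. *Klf15* is filled in both fits, at -1.90 and -1.97, and *Pparg* and *Cebpa* are filled only without NCD replicate 1, at -1.11 and -1.14.

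A ratio of counts within a library is free of the scaling between libraries. *Pparg* and *Cebpa* kept nearly the same ratio in every mouse although their levels differed several-fold. *Pparg* over *Cebpa* was 0.319, 0.386 and 0.392 in the NCD mice, and the HFD mice had 0.389, 0.394 and 0.408. The lowest ratio was that of NCD replicate 1, and the remaining 5 mice differed by little. The log2 difference between the diets was 0.12 (exact two-sided permutation test, p = 0.2).

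*Klf15* over *Cebpa* was 0.476, 0.131 and 0.142 on NCD and 0.0896, 0.0817 and 0.0531 on HFD. *Klf15* was thus lower on HFD also relative to *Cebpa*, in every mouse, by 2.83-fold with all mice, and its log2 difference was -0.90 without NCD replicate 1. Over *Ppia*, the gene the study used as its qPCR reference, *Klf15* was at 0.189, 0.128 and 0.151 on NCD and at 0.0492, 0.0516 and 0.0235 on HFD. *Ppia* itself had a log2 fold change of -0.03 between the diets (adjusted p = 0.952 from edgeR). It was at 423, 672 and 710 TMM-scaled CPM on NCD and at 636, 549 and 583 on HFD, so that without NCD replicate 1 its diets did not overlap (log2 fold change -0.22, adjusted p = 0.381 from edgeR).

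*Zfp423* over *Ppia* was 0.0314, 0.0560 and 0.0474 on NCD and 0.0655, 0.0667 and 0.0612 on HFD. Every HFD ratio lay above every NCD ratio, where the scaled levels of *Zfp423* overlapped and *Ppia* was lower on HFD than in NCD replicates 2 and 3. *Cebpd* over *Cebpa* was 0.0490, 0.0220 and 0.0155 on NCD and 0.0354, 0.0886 and 0.160 on HFD, and these overlapped through HFD replicate 1. Of the 14 ratios compared, 3 did not overlap, each with the smallest exact permutation p of 0.1 and an adjusted p of 0.4 over the 14. These are the ratios of *Klf15* to *Cebpa*, *Klf15* to *Ppia* and *Zfp423* to *Ppia*.

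The members were also set against the geometric mean of the 7 adipocyte markers of the same library, a ratio chosen after the data had been seen. *Klf15* was at 0.0978, 0.0267 and 0.0253 of it on NCD and at 0.0196, 0.0169 and 0.0111 on HFD, so HFD stayed below. NCD replicate 1 lay far above the other NCD mice. The log2 difference of *Klf15* was -1.39 with all mice and -0.75 without that library. *Ebf1* was at 0.0431, 0.0412 and 0.0387 on NCD and at 0.0757, 0.0641 and 0.0724 on HFD, above in every mouse and with NCD replicate 1 close to the other NCD mice. *Zfp423* was at 0.0163, 0.0117 and 0.00795 on NCD and at 0.0260, 0.0218 and 0.0290 on HFD. *Pparg* and *Cebpa* lay above on HFD by only 0.24 and 0.11 on the log2 scale. For *Klf15*, *Ebf1*, *Zfp423*, *Pparg* and *Cebpa* the exact two-sided permutation test gave its floor, p = 0.1. Ratios of *Cebpb*, *Cebpd* and *Ebf2* overlapped between the diets (exact permutation test, p = 0.6, 0.2 and 0.6). How many of all genes would separate over the same markers was not counted. Since 3 of the 7 markers fell without NCD replicate 1, these ratios compare a member with genes that themselves moved. All 7 markers are also in the list of PPARγ target genes below, so the ratios of *Pparg* are not set against independent genes.

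**Figure D3:**
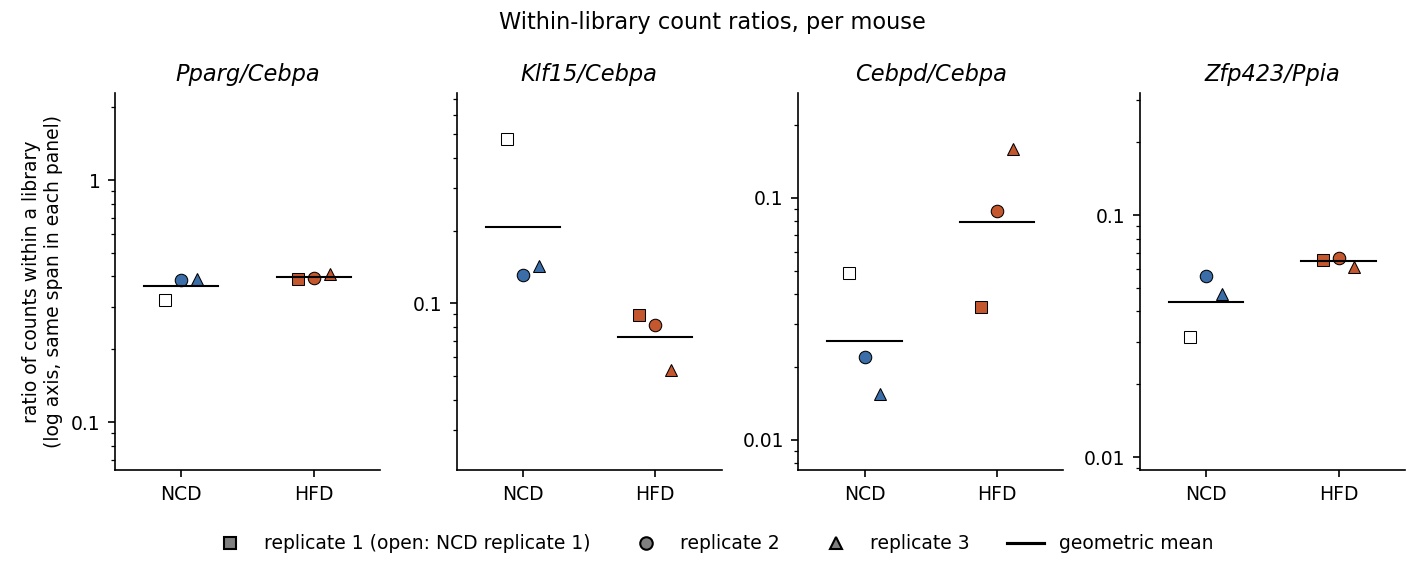
Ratio of counts within each library for 4 gene pairs (log axes of equal span), with symbols as in the plot of levels by mouse and a line at the geometric mean. *Pparg*/*Cebpa* stays between 0.319 and 0.408 in all 6 mice, *Klf15*/*Cebpa* is lower and *Zfp423*/*Ppia* higher in every HFD mouse, and *Cebpd*/*Cebpa* overlaps.

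To compare the members with each other, TMM-scaled CPM was divided by the exon length in kilobases. *Cebpa* was the highest, with 200 ± 119 CPM per kilobase on NCD and 121 ± 19.8 on HFD (mean and SD, n = 3 mice each). *Pparg* followed, at 84.4 ± 54.2 and 52.9 ± 7.56. *Klf15* was at 33.0 ± 5.18 and 8.88 ± 3.42, and *Ebf1* at 18.5 ± 11.2 and 17.7 ± 2.70, so that *Klf15* ranked above *Ebf1* on NCD and below it on HFD. *Zfp423*, *Cebpd*, *Ebf2* and *Cebpb* had means from 3.05 to 14.2. The 14.2 was the HFD mean of *Cebpb* (SD 22.3), from mice at 0.957, 40.0 and 1.82, and so rested on HFD replicate 2. *Cebpa* was above *Pparg* and *Ebf1* above *Zfp423* in 6 of 6 mice (exact sign-flip permutation test, two-sided p = 0.0312, the floor for 6 mice, adjusted p = 0.109 over the 7 neighbouring pairs). *Pparg* was above *Klf15* in 5 of 6 mice, with NCD replicate 1 the exception (exact sign-flip permutation test, p = 0.0625). This test takes both diets together. For *Klf15* and *Ebf1* it averages opposite orders, since *Klf15* was the higher in all 3 NCD mice and the lower in all 3 HFD mice. Among *Zfp423*, *Cebpd*, *Ebf2* and *Cebpb*, neighbouring pairs gave p from 0.188 to 0.875 in the exact permutation test, and their order differed between mice.

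Likeness of pattern was measured as the root mean square difference of log2 TMM-scaled CPM over the 6 mice after centring each gene, and is a description of these mice. *Pparg* was nearest to *Adig*, at 0.0774, then to *Cebpa*, at 0.115, and to *Dbi*, at 0.121. *Cebpa* was nearest to *Tmem45b*, *Plin1* and *Dolk*, with 0.0923 for *Tmem45b* and 0.0975 for *Plin1*, and *Pparg* came next after these 3. *Klf15* was nearest to *Reep6*, *Glb1l2* and *Prodh*, at 0.165, 0.206 and 0.233, and was farther from every other member, with 0.986 as the smallest distance, to *Ebf2*.

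Promoter letters of *Cebpa* and of the most downstream start of *Pparg* are shown because these genes shared a pattern over the mice. The pattern was not particular to this pair, since the adipocyte marker *Plin1* was nearer to *Cebpa* than *Pparg* was. C/EBP factors are known regulators of both members, and a shared regulation was not tested. The *Pparg* window is chr6:115421816-115422065 and the *Cebpa* window chr7:35119043-35119292, both on the forward strand of GRCm38.p6 from RefSeq, and capitals mark matches to TTNNGCAA on either strand.
Pparg downstream start: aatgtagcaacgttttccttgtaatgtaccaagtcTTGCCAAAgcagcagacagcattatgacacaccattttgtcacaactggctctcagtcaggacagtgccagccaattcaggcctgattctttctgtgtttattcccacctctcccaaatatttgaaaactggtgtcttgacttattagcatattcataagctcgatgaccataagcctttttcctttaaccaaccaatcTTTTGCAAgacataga
Cebpa: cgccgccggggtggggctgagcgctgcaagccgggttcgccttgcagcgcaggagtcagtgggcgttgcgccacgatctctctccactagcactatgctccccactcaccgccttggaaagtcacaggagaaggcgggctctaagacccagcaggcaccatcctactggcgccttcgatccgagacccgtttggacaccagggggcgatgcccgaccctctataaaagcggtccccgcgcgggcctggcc
The *Pparg* window holds matches beginning 215 and 16 bases before the start, and the *Cebpa* window holds none. At least 1 match was present in 9.56% of the 32851 promoters. The upstream starts of *Pparg* had none. *Zfp423* had a match beginning 131 bases before its upstream start and none in the window of its downstream start. The 5 letters CACCC, a Krüppel-like factor motif, were in every window of the 6 members with a promoter entry except that of the downstream *Pparg* start, and in 52.0% of all promoters, so they set nothing apart. The palindromic EBF motif and the DR1 element of PPAR dimers were in none of the windows shown, and in 0.779% and 0.0335% of all promoters. Counts per gene do not separate transcripts from different starts, so the levels of *Pparg* belong to all starts together.

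The relatives of the members are 8 genes that bind DNA with the same kinds of domain. None was past the threshold with all 6 mice in edgeR, where 5 had an unadjusted p under 0.05 and DESeq2 called 3 lower. Over all genes, 4524 of the 15241 tested by edgeR had an unadjusted p under 0.05, and DESeq2 called 25.6%. These shares are the background for such counts in each list below. *Ppara* and *Cebpg* fell in edgeR without NCD replicate 1. *Cebpg*, which encodes a C/EBP protein without an activation domain, averaged 126 ± 12.3 on NCD and 86.3 ± 6.26 on HFD in TMM-scaled CPM (SD, n = 3 mice each), with no overlap (log2 fold change -0.55, adjusted p = 0.0754 from edgeR, and -0.61 with 0.0224 without NCD replicate 1). *Ppard*, the broadly expressed PPAR gene, averaged 39.3 ± 10.9 and 23.5 ± 3.43, again with no overlap (log2 fold change -0.74, adjusted p = 0.105 from edgeR, and -0.48 with 0.0914 without NCD replicate 1). The list median was -0.44 with all 6 mice and -0.54 without NCD replicate 1.

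Of the 16 other Krüppel-like factor genes, 14 had enough counts to be tested. *Klf4*, a factor of the early response in differentiation, rose from 30.8 ± 4.26 TMM-scaled CPM on NCD to 57.5 ± 10.6 on HFD (SD, n = 3 mice each), with a log2 fold change of 0.90 (adjusted p = 0.0454 from edgeR) that was 0.84 (adjusted p = 0.0319) without NCD replicate 1. It was the only gene of the list that passed with all 6 mice, and *Klf14* rose as well without NCD replicate 1. *Klf9*, which like *Klf15* is induced by glucocorticoids, was at 98.5, 85.6 and 79.1 on NCD and 65.4, 43.8 and 31.0 on HFD (log2 fold change -0.91, adjusted p = 0.102 from edgeR, and -0.81 with 0.109 without NCD replicate 1). *Klf2*, an inhibitor of *Pparg* expression in precursors, had a log2 fold change of 0.72 (adjusted p = 0.110 from edgeR), and 0.83 (adjusted p = 0.0726) without that library. The list median was 0.41 with all 6 mice and 0.36 without NCD replicate 1, and no gene of the list was called lower in either edgeR fit, while DESeq2 called 5 higher and 2 lower.

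Among 17 genes of regulators that promote fat cell differentiation, *Egr2* rose with all 6 mice and none fell in edgeR, while DESeq2 called 5 lower. At an unadjusted p under 0.05, edgeR had 7 of the 17, beside 4524 of all 15241 genes. *Egr2*, an early zinc finger factor that is also expressed in macrophages, was at 1.04, 2.88 and 3.91 TMM-scaled CPM on NCD and at 42.3, 12.8 and 15.7 on HFD (log2 fold change 3.17, adjusted p = 0.0477 from edgeR, and 2.81 with 0.0295 without NCD replicate 1). The macrophage marker sums were likewise highest in HFD replicate 1, at 5544, and the part of macrophages in the *Egr2* values was not tested. *Srebf1*, the gene of the lipogenic factor SREBP-1, was at 242, 708 and 656 on NCD and 121, 189 and 121 on HFD, a log2 fold change of -1.90 (adjusted p = 0.0601 from edgeR) that was -2.23 (adjusted p = 0.00686) without NCD replicate 1. *Stat5a*, a signal transducer of growth hormone and prolactin, had a log2 fold change of -1.06 (adjusted p = 0.156 from edgeR), and -0.50 (adjusted p = 0.202) without NCD replicate 1. In the fit without NCD replicate 1, *Rxra*, *Nr3c1*, *Zfp467*, *Nfia*, *Nfib*, *Ncoa1* and *Ppargc1a* fell beside *Srebf1*. They are named after their values were seen, and they include the obligate partner of PPARγ, *Rxra*, and the glucocorticoid receptor gene, *Nr3c1*. Over these 17 genes the median log2 fold change was -0.54 with all 6 mice, beside -0.08 for all genes. Without NCD replicate 1 it was -0.50, beside 0.02.

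Among 16 genes of regulators that restrain differentiation, *Runx2*, the master factor of bone formation, rose from 1.74 ± 0.491 to 10.1 ± 1.32 TMM-scaled CPM (SD, n = 3 mice each), with a log2 fold change of 2.52 (adjusted p = 0.0212 from edgeR) that was 2.36 (adjusted p = 0.00667) without NCD replicate 1. None fell with all 6 mice in edgeR, while DESeq2 called 4 lower. In edgeR 5 of the 16 had an unadjusted p under 0.05, beside 4524 of all 15241 genes. *Gata2* and *Gata3*, which repress *Pparg* in precursors, had log2 fold changes of -4.78 and -5.76 (adjusted p = 0.0769 and 0.0700 from edgeR). Without NCD replicate 1 these were -2.32 and -3.08, and both fell (adjusted p = 0.0240 and 0.0265 from edgeR). *Gata2* was at 702, 75.3 and 22.8 TMM-scaled CPM and *Gata3* at 254, 24.1 and 5.66 in the NCD mice. The 5 epithelial markers summed to 1078, 108 and 25.6 in the same mice, in the order of their seminal vesicle shares, and to 15.7 to 78.5 on HFD. The part of such tissue in the values of *Gata2* and *Gata3* was not tested. *Foxo1* and *Nr2f2*, named after their values were seen, also fell without NCD replicate 1, by 0.88 and 0.64 on the log2 scale (adjusted p = 0.0188 and 0.0481 from edgeR). The list median was -0.19 with all 6 mice and -0.14 without that library.

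Of 25 target genes of PPARγ, *Angptl4*, a secreted inhibitor of lipoprotein lipase, was the only gene past the threshold with all 6 mice in edgeR. In that fit 8 of the 25 had an unadjusted p under 0.05, beside 4524 of all 15241 genes. DESeq2 called 3 of the list higher and 5 lower. *Angptl4* rose. It was at 53.8, 156 and 211 TMM-scaled CPM on NCD and at 789, 757 and 907 on HFD (log2 fold change 2.54, adjusted p = 0.0425 from edgeR, and 2.17 with 0.00667 without NCD replicate 1). Without NCD replicate 1, *Angptl4* and the glycerol kinase gene *Gk* rose, and *Plin1*, *Lipe*, *Slc2a4*, *Gpd1*, *Agpat2*, *Dgat1*, *Cfd* and *Pex11a* fell. *Agpat2*, an enzyme of triglyceride synthesis, was at 214, 1408 and 1097 on NCD and at 174, 147 and 71.4 on HFD (log2 fold change -2.79, adjusted p = 0.0738 from edgeR, and -3.25 with 0.00829 without NCD replicate 1). *Cfd*, the gene of adipsin, had a log2 fold change of -3.02 (adjusted p = 0.0650 from edgeR), and -3.42 (adjusted p = 0.0111 from edgeR) without NCD replicate 1. The list median was -0.31 with all 6 mice and -0.72 without that library.

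None of 10 C/EBP target genes passed with all 6 mice in edgeR, while DESeq2 called 1 higher and 3 lower. In edgeR 4 of the 10 had an unadjusted p under 0.05, beside 4524 of all 15241 genes. *Retn*, *Adrb3* and *Scd1* fell in edgeR without NCD replicate 1. *Scd1*, a fatty acid desaturase gene, was at 7881, 31649 and 32484 TMM-scaled CPM on NCD and 4666, 5474 and 3129 on HFD (log2 fold change -2.44, adjusted p = 0.151 from edgeR, and -2.85 with 0.0155 without NCD replicate 1). *Retn*, the resistin gene, was at 255, 1120 and 1406 on NCD and at 118, 269 and 171 on HFD, with NCD replicate 1 inside the HFD range (log2 fold change -2.32, adjusted p = 0.0872 from edgeR, and -2.75 with 0.00968 without it). The list median was 0.17 with all 6 mice and -0.02 without NCD replicate 1.

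Target genes of the glucocorticoid receptor were included because *Klf15* belongs to that response. Of these 9 genes, 2 rose, 2 fell and 5 did not pass with all 6 mice in edgeR. In that fit 8 of the 9 had an unadjusted p under 0.05, beside 4524 of all 15241 genes. DESeq2 called 4 higher and 4 lower. *Fkbp5*, a co-chaperone of the receptor, was at 168, 115 and 124 TMM-scaled CPM on NCD and at 58.8, 54.3 and 78.6 on HFD, and it fell by 1.09 on the log2 scale (adjusted p = 0.0453 from edgeR). *Per1*, a clock gene, fell by 0.85 (adjusted p = 0.0445 from edgeR). *Pdk4*, a kinase that restrains pyruvate oxidation, rose by 3.06 and the metallothionein gene *Mt2* by 2.61 (adjusted p = 0.0228 and 0.0498 from edgeR). In the fit without NCD replicate 1, *Fkbp5* and *Per1* fell by 0.89 and 0.80 and *Pdk4* rose by 2.81 (adjusted p = 0.0276, 0.0304 and 0.0102 from edgeR). *Zbtb16* and *Sgk1* then fell and *Dusp1* rose as well, named here after their values were seen. *Sgk1* was at 1378, 157 and 75.0 TMM-scaled CPM in the NCD mice, in the order of their seminal vesicle shares, and at 53.0, 50.6 and 50.4 in the HFD mice. The part of that tissue in the *Sgk1* values was not tested. *Mt2* was at 2.60 with an adjusted p of 0.0511 from edgeR in that fit. The list median was -0.59 with all 6 mice and -0.80 without NCD replicate 1. Of the 99 genes tested in the 7 lists, 8 (8.08%) passed with all 6 mice, near the background of 7.47%, and 37 (37.4%) without NCD replicate 1, beside 20.9% of all genes, and none passed on removing 1 of the other 5 mice.

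**Figure D4:**
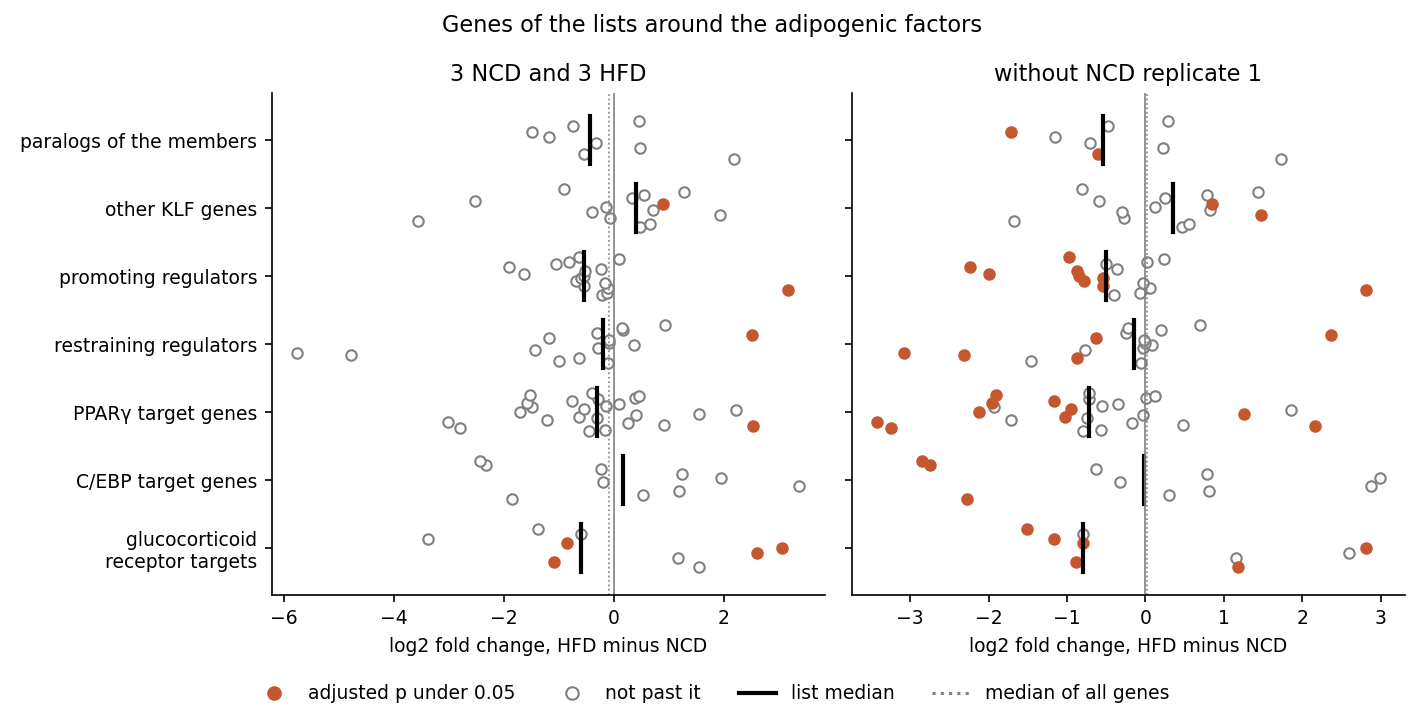
Log2 fold change, HFD minus NCD, of every tested gene in the 7 lists around the factors, with all 6 mice (left) and without NCD replicate 1 (right, on its own axis range), filled where the adjusted p was under 0.05, with a black bar at the list median and a dotted line at the median of all genes. The medians of the paralogs, the promoting and restraining regulators, the PPARγ targets and the glucocorticoid receptor targets lie below the line in both panels, that of the other KLF genes above it, and that of the C/EBP targets above it on the left and just below it on the right.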

How the data were processed

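RNA of gWAT was sequenced from 6 mice on an Illumina NovaSeq. The authors deposited raw read counts per gene, 1 column per mouse, by NCBI gene identifier and without normalization. The submitters' processing notes name bcl2fastq 2.20.0, Trimmomatic, HISAT2 2.1.0, StringTie 1.3.4d and DESeq2, with builds mm10 and GRCm38. The settings, the program that counted the reads, its treatment of shared or opposite-strand bases and any filter are not stated in these sources. The labels name the stranded form of the TruSeq mRNA kit and the methods do not. The column of HFD replicate 3 carries the number 4, and no column was without a sample (0 columns). Of 19790 identifiers, 19742 were paired with a symbol. The other 48 stayed in library sizes and tests. Depth was between 49575113 and 66360046 counts, so 1 count was worth 0.0151 to 0.0202 CPM.

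In R 4.3.3, edgeR 4.0.16 was used: low genes were removed by filterByExpr (at least 10 counts, 15 in total), TMM set the scaling, and the quasi-likelihood fit compared HFD with NCD. P-values were adjusted by Benjamini-Hochberg over all genes tested, with 0.05 as the threshold. All 8 members passed the filter. The procedure was run on simulated counts with a lower dispersion than these data and no library rich in seminal vesicle RNA. That run does not measure its error rate in these mice. Exon lengths and loci are from GENCODE vM21 on GRCm38, and promoter sequences from RefSeq on GRCm38.p6, where 6 of the 8 members had an entry (all but *Cebpd* and *Ebf2*). Motifs were searched on both strands.

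The members, the gene lists and the tests were chosen with earlier results of these data known. Named from each list are genes past the threshold with all 6 mice (up to 6), and, where fewer than 2 passed, the 2 with the largest change among those at or above the median level. Further list genes, named because they passed without NCD replicate 1, lie outside this rule and were picked after their values were seen. Besides the lists described, progenitor, T cell, B cell, endothelial, mesothelial and smooth muscle markers were counted. With all 6 mice 1 mesothelial gene (*Msln*) rose and no gene of the other 5 lists passed in edgeR (unadjusted p under 0.05 for 4 progenitor and 5 smooth muscle genes, of which DESeq2 called 3 higher and 5 lower, and for 0 of the others). Without NCD replicate 1, *Msln* and *Pecam1* rose and 3 smooth muscle genes fell. Of the epithelial markers none passed with all 6 mice (4 at an unadjusted p under 0.05 and 4 lower by DESeq2) and 2 fell without NCD replicate 1, and of 11 seminal vesicle genes 9 and 11 fell.

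Alternatives were median-of-ratios, upper-quartile and total-count scaling, no filter, DESeq2 1.42.0, limma 3.58.1 on log2(CPM + 1), the replicate number as a block, and each mouse left out. Same-numbered mice of the diets did not deviate together (correlations -0.05, -0.02 and -0.02). Replicate libraries were far apart relative to counting noise (chi-square over its degrees of freedom, 116 to 3597). The edgeR p-values set a diet difference against the spread between these mice, estimated with information shared across genes. Figures were drawn with matplotlib 3.10.9.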

Additional observations from a re-analysis of the deposited data

How the results depend on the processing

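Over the 13 alternatives *Klf15*, *Pparg*, *Cebpa* and *Ebf2* were lower on HFD each time and *Cebpd* and *Zfp423* higher. Log2 fold changes ran from -1.11 to -0.28 for *Pparg* and from -1.14 to -0.36 for *Cebpa*. They ran from -1.08 to -0.023 for *Ebf2* and from 0.11 to 0.78 for *Zfp423*. Without NCD replicate 3, the -0.023 of *Ebf2* had a standard error of 0.511 and lay above the median of all genes, -0.046. *Klf15* was past the threshold in 6 of the 13, with log2 fold changes from -2.11 to -1.44. *Ebf1* (-0.06) turned to 0.24 with total counts, 0.19 with limma and 0.16 with the replicate block, and lay between -0.47 and 0.35 with a mouse left out (0.085, 0.35 and 0.058 without NCD replicates 2 and 3 and HFD replicate 3). *Cebpb*, between -1.44 and 2.46 with a mouse left out, turned to -1.44 without HFD replicate 2, where its high value is removed, and DESeq2 gave it no adjusted p. Under total-count scaling the median over all genes was 0.45 and not -0.08, so relative to it *Ebf1* was lower. The number of members past the threshold, 1, was 0 with total counts, 2 with DESeq2 (*Klf15* and *Cebpd*) and 0 with the replicate block. With a mouse left out it was 0 to 3, with 3 without NCD replicate 1. The number of list genes, 8, was 5 with total counts, 5 with upper-quartile scaling, 2 without a filter, 41 with DESeq2 and 0 with the replicate block, and ranged from 0 to 37 without a mouse. The mice share only a number, so the block is not a pairing, and under it *Klf15* had a log2 fold change of -1.96 (adjusted p = 0.0902 from edgeR). Genes called fell from 1139 to 12 with the block and numbered 959 with total counts, 1012 with upper-quartile scaling, 803 without a filter, 3904 with DESeq2, 3234 without NCD replicate 1 and 2 to 7 without any other mouse. The share of calls higher on HFD was 74.6%, against 55.1% with DESeq2, 51.5% without NCD replicate 1 and 41.7% with the block. The number of ratios without overlap, 3, was 3 with 0.5 counts added and ranged from 3 to 8 without a mouse (8, 5 and 6 without NCD replicate 1, NCD replicate 2 and HFD replicate 1). The cause of these changes was not tested. The lowest count of any member was 83, for *Cebpb*, which had 83 to 408 counts in 5 of the mice.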
